A study of Mus musculus with 3 samples.

Results

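The genes described here are 9 members of the cation-chloride cotransporter family and of the WNK kinase cascade that sets its activity, measured in RNA from wild-type (WT) mouse cortical neurons under the control treatment, called CON in the labels. They are the cotransporter genes Slc12a2, Slc12a4, Slc12a5 and Slc12a7, the kinase genes Wnk1, Wnk2 and Wnk3, and the genes Stk39 and Oxsr1 of the kinases that WNKs switch on. They were chosen by name. All 9 of 9 listed genes were found, among 18130 coding genes with a value, and they hold 64 of the 84660 transcript entries. The series has 3 libraries of 1 group, replicates 1 to 3, so every comparison is between genes or transcripts inside a library. Total RNA was taken with RNeasy columns and made into libraries with the KAPA HyperPrep kit. The labels give no strain, sex, age, culture method or days in culture, and no treated or mutant group is analysed here.

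Cotransporters of this family carry chloride together with sodium or potassium across the plasma membrane. The importer NKCC1, encoded by Slc12a2, raises chloride inside a neuron, and the exporter KCC2, encoded by Slc12a5, lowers it, so that their balance sets whether GABA depolarises or inhibits the cell. WNK kinases sense chloride and activate the kinases SPAK (Stk39) and OSR1 (Oxsr1), which phosphorylate both classes of transporter, activating the importer and inhibiting the exporters. In rodent cortex KCC2 is known to rise as neurons mature.

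Levels are in TPM, a relative abundance scaled by transcript length, so that levels of different genes can be set side by side. A gene's value is that of the coding transcript with the most reads. Entries of 1 gene share reads, so they were not added up for the main values. When the chosen transcripts of nuclear coding genes were instead rescaled to the full TPM total, Slc12a5 stood at 125.5 and Slc12a7 at 2.41, and all 9 levels were higher, so a minimum of 1 TPM holds for the deposited scale. The chosen coding transcripts, 1 per gene and only those with whole read counts, held 32487964, 28684444 and 28224464 reads in replicates 1, 2 and 3. These sums are not the full depth of the libraries. Each error is an SD across replicates 1 to 3. Whether these are separate cultures is not given, so the p-values cover these samples only, and the spread between the samples may be technical. In bulk RNA, fewer cells of a type and less RNA per cell cannot be told apart. With 3 libraries the two-sided exact sign-flip test cannot go below p = 0.25, so no difference could reach 0.05. The test gives 0.25 whenever the 3 differences share a sign, whatever their size or spread.

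With 1 coding entry per gene, Slc12a5 carried the highest level of the 9 genes and Slc12a7 the lowest. With the sum over entries, which counts shared reads repeatedly, Slc12a5 (87.9 TPM) stood below Wnk1 (214 TPM), Wnk2 (107 TPM) and Stk39 (99.7 TPM). Of the 9 members, 8 had a mean of at least 1 TPM, beside 61.8% of all coding genes. The median of the 9 members was 9.20 TPM, beside 2.91 TPM over all coding genes and 8.29 TPM over the 11204 coding genes that reached 1 TPM. The order of mean level was Slc12a5, Stk39, Oxsr1, Wnk1, Wnk2, Slc12a2, Slc12a4, Wnk3 and Slc12a7. Of the 8 pairs of neighbours in that order, 6 differed by more than the SD of the difference. The 2 that did not were Wnk1 and Wnk2, and Wnk2 and Slc12a2 (0.15 ± 0.18 log2 units, and 0.05 without replicate 1). The order also rests on the entry that stands for a gene: with the coding entry of highest TPM, Oxsr1 minus Wnk1 was -0.33 in place of 0.14 ± 0.05, and Wnk2 minus Slc12a2 was 0.27. In all, 15 pairs were compared on the log2(TPM + 0.1) scale, and 14 had the same sign in the 3 libraries, each with an exact sign-flip p of 0.25 (0.268 after Benjamini-Hochberg adjustment over the 15).

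**Figure D1:**
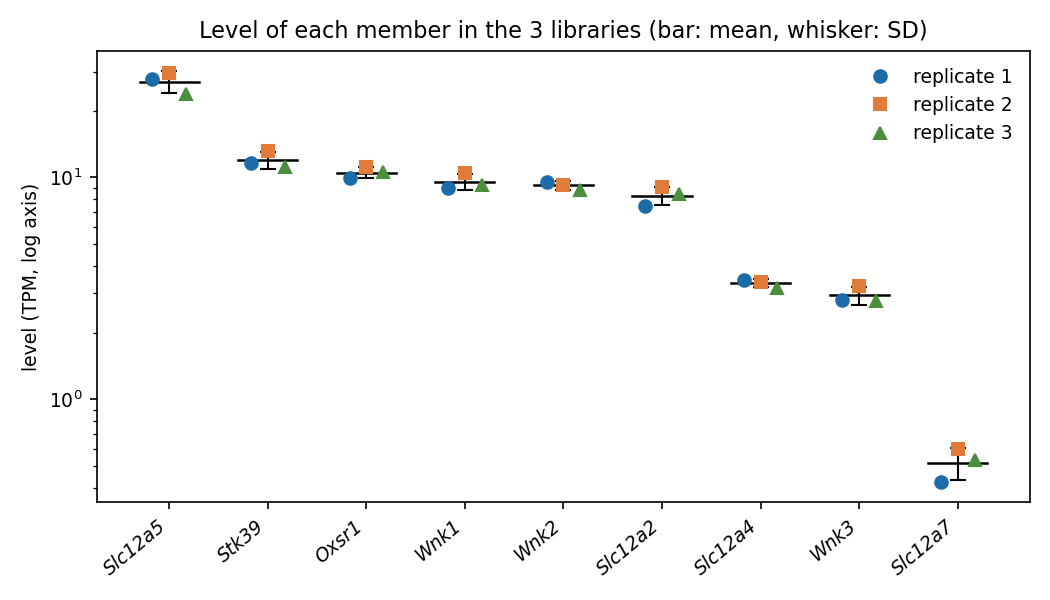
Level of each of the 9 genes in TPM on a log axis, 1 symbol per library, with the mean as a bar and the SD over 3 libraries as a whisker. Slc12a5 stands at 27.0 TPM, 5 genes lie between 8.29 and 11.98 TPM, Slc12a4 and Wnk3 lie near 3 TPM and Slc12a7 stands at 0.52 TPM.

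Slc12a5 (ENSMUSG00000017740.17) encodes KCC2, the potassium-chloride exporter that is largely restricted to neurons. It spans chr2:164960802-164999731 on the plus strand of GRCm38. Its level was 27.7, 29.7 and 23.7 TPM in replicates 1, 2 and 3, resting on 8566, 7729 and 6513 reads. The mean of 27.0 ± 3.07 TPM (SD, n = 3) was above that of 89.7% of coding genes. Replicate 3 was the lowest, and the same library had the lowest summed level of 10 pan-neuronal marker genes, at 2430, 2495 and 2190 TPM in replicates 1, 2 and 3. The part of that in the Slc12a5 values was not tested.

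The gene has 2 alternative first exons, named 1a and 1b, which give the KCC2a and KCC2b proteins different beginnings. The coding part of exon 1a, from RefSeq's GRCm38.p6 genome, is shown because an entry below holds this exon apart from the rest of the gene. Capitals mark the start codon, and the 121 bases lie at chr2:164960883-164961003 on the plus strand.
Slc12a5 exon 1a: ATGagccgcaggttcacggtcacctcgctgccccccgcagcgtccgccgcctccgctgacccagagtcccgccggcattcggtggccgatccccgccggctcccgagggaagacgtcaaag

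The entry with exon 1a apart from the body of the gene held few reads. The entry Slc12a5-203, which holds exon 1a and 2 further exons of a transcript annotated for nonsense-mediated decay, had 15, 20 and 47 reads in replicates 1, 2 and 3. The exact 95% Poisson intervals were 8.40 to 24.7, 12.2 to 30.9 and 34.5 to 62.5 reads, which cover counting error only. In TPM this entry stood at 0.69, 1.10 and 2.44, or 2.5%, 3.69% and 10.3% of Slc12a5-201, the coding entry that starts with exon 1b. Slc12a5-201 also holds exons shared with entries of exon 1a, so these shares are not a ratio of exon 1a to exon 1b. Replicate 3 was the highest for this entry as a whole and the lowest for the coding entry. Reads on exon 1a were not separated from those on the other exons of the entry. Slc12a5-203 holds the whole of exon 1a, so if reads were counted for every entry they touch, as the reads shared among entries show for nested pairs, it gives an upper limit for reads of KCC2a that touch this exon.

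Other entries of the gene also varied along its length. Slc12a5-202, which joins exon 1a to exons near the 5′ end that are largely shared with Slc12a5-201, stood at 21.03, 26.5 and 29.1 TPM in replicates 1, 2 and 3. It was highest in replicate 3, in contrast to Slc12a5-204 in the middle of the gene (17.7, 17.8 and 10.9 TPM) and Slc12a5-205 at its 3′ end (19.7, 20.6 and 15.0 TPM). As shares of Slc12a5-201, the middle entry averaged 56.6 ± 9.26% and the 3′ entry 67.9 ± 3.92% (SD, n = 3). Both of these are annotated as retained introns and hold intronic bases. Short entries also gain reads that reach into them from neighbouring exons, so their levels are not those of separate RNAs.

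**Figure D2:**
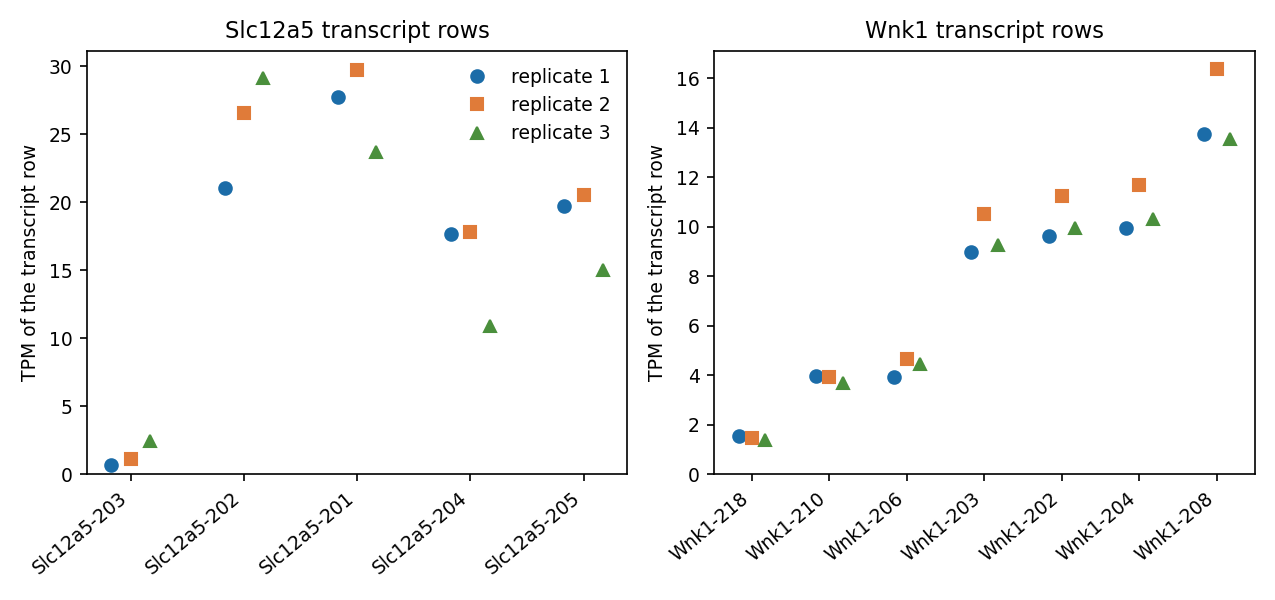
TPM of each transcript entry of Slc12a5 (left, in order along the gene from the exon 1a entries) and of 7 entries of Wnk1 (right), 1 symbol per library. Slc12a5-203 lies between 0.69 and 2.44 TPM while Slc12a5-201 lies between 23.7 and 29.7 TPM, and the long-exon entry (leftmost) lies between 1.37 and 1.56 TPM while Wnk1-203 lies between 8.98 and 10.5 TPM.

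The coding entry whose level is given above starts with exon 1b. Its level also rests on exons shared with entries of exon 1a, so it does not measure this start alone. The 250 bases before the RefSeq start of exon 1b are shown. They span chr2:164967738-164967987 on the plus strand of GRCm38.p6 and hold 67.2% G or C, beside a median of 52.4% over 32851 such windows. Capitals mark matches to CACGTG (an E-box, the same on both strands) and to GGGCGG (a GC box, searched on both strands), which do not overlap each other here.
Slc12a5 before exon 1b: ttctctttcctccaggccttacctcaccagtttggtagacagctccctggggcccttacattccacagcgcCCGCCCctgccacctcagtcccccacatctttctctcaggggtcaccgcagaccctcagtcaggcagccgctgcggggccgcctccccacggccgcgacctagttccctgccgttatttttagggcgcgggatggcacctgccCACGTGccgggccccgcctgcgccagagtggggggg

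The E-box starts 36 bases and the GC box 179 bases before the start. An E-box stood in 6.02% and a GC box in 32.7% of all 32851 windows. The window before exon 1a held neither. Of 10 windows for 8 of the members, 2 held an E-box (Slc12a5 before exon 1b and 1 of the starts of Slc12a7) and 7 a GC box. The EGR motif GCGNGGGCG, searched on both strands, was in 4.70% of all windows and in 0 of the 10. These matches are letters in a sequence and say nothing of binding.

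Slc12a2 (ENSMUSG00000024597.11, chr18:57878678-57946821, plus strand) encodes NKCC1, the sodium-potassium-chloride importer, which glia also use. It stood at 7.43, 9.03 and 8.41 TPM in replicates 1, 2 and 3, a mean of 8.29 ± 0.81 TPM (SD, n = 3), and was lowest in replicate 1. Slc12a5 exceeded it in every library, and the values of the 2 genes did not overlap. The Slc12a5 minus Slc12a2 difference was 1.89, 1.71 and 1.48 log2 units in replicates 1, 2 and 3, a mean of 1.69 ± 0.20, and the ratio was 3.28 ± 0.46 (p = 0.25, exact sign-flip test, n = 3). It was smallest in replicate 3. The summed level of 10 astrocyte markers was highest there, at 432, 459 and 525 TPM in replicates 1, 2 and 3. In replicate 3, 7 of the 10 were highest and 2 lowest. The sum of 10 oligodendrocyte lineage markers was highest there too, at 73.7, 56.2 and 90.5 TPM, with 6 of the 10 highest and 3 lowest. The sums of radial glia markers (606, 528 and 445 TPM) and of choroid plexus markers (10.3, 12.005 and 6.19 TPM) were lowest there. Single genes carried most of these sums: Fabp7 at 503, 415 and 340 TPM, and Ttr at 8.45, 9.77 and 4.56 TPM. Of 9 radial glia markers, 3 were highest and 3 lowest in replicate 3. Of 8 choroid plexus markers, 2 were highest and 3 lowest in replicate 3, and 5 were lowest in replicate 1. How much of either transporter came from glia was not tested. With the sum over all entries, of which Slc12a5 has 5 and Slc12a2 has 1, the difference was 3.39.

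The ubiquitous exporter genes were lower. Slc12a4 (ENSMUSG00000017765.17, chr8:105943590-105966097, minus strand) encodes KCC1, a housekeeping exporter that responds to cell volume. It stood at 3.45, 3.38 and 3.18 TPM in replicates 1, 2 and 3, a mean of 3.34 ± 0.14 TPM. Slc12a7 (ENSMUSG00000017756.9, chr13:73733094-73816754, plus strand) encodes KCC4, best known from kidney and inner ear. It stood at 0.426, 0.595 and 0.533 TPM, a mean of 0.52 ± 0.09 TPM, on 112, 132 and 125 reads. On the deposited scale Slc12a7 was the 1 gene of the 9 under 1 TPM.

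Slc12a5 exceeded both of these exporters in the 3 libraries. The log2 difference was 2.97 ± 0.12 from Slc12a4, 5.46 ± 0.25 from Slc12a7 and 2.77 ± 0.12 from their summed level, the last a ratio of 6.997 ± 0.56 (exact sign-flip p = 0.25 each, n = 3). Slc12a4 lay below the importer by a log2 difference of -1.28 ± 0.17, a ratio of 0.41 ± 0.05, and Slc12a7 lay below Slc12a4 by -2.48 ± 0.24 (exact sign-flip p = 0.25 each, n = 3). With a pseudocount of 1, Slc12a7 minus Slc12a4 was -1.52. With the sum over entries it was -4.46, and Slc12a4 lay above Slc12a2, at 0.69.

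Of the summed level of the 4 cotransporter members, Slc12a5 made up 68.9 ± 2.53%, Slc12a2 21.2 ± 2.24%, Slc12a4 8.55 ± 0.55% and Slc12a7 1.32 ± 0.21% (SD, n = 3). Of 4 other genes of the family, 1 reached 1 TPM, beside 61.8% of coding genes. Slc12a9, a family member without a settled transport role, stood at 4.38 ± 0.22 TPM and Slc12a8 at 0.31 ± 0.02 TPM. The kidney transporter genes Slc12a3 and Slc12a1 stood at 0.032 ± 0.005 and 0.016 ± 0.012 TPM, on 4 to 6 and 1 to 7 reads a library.

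**Figure D3:**
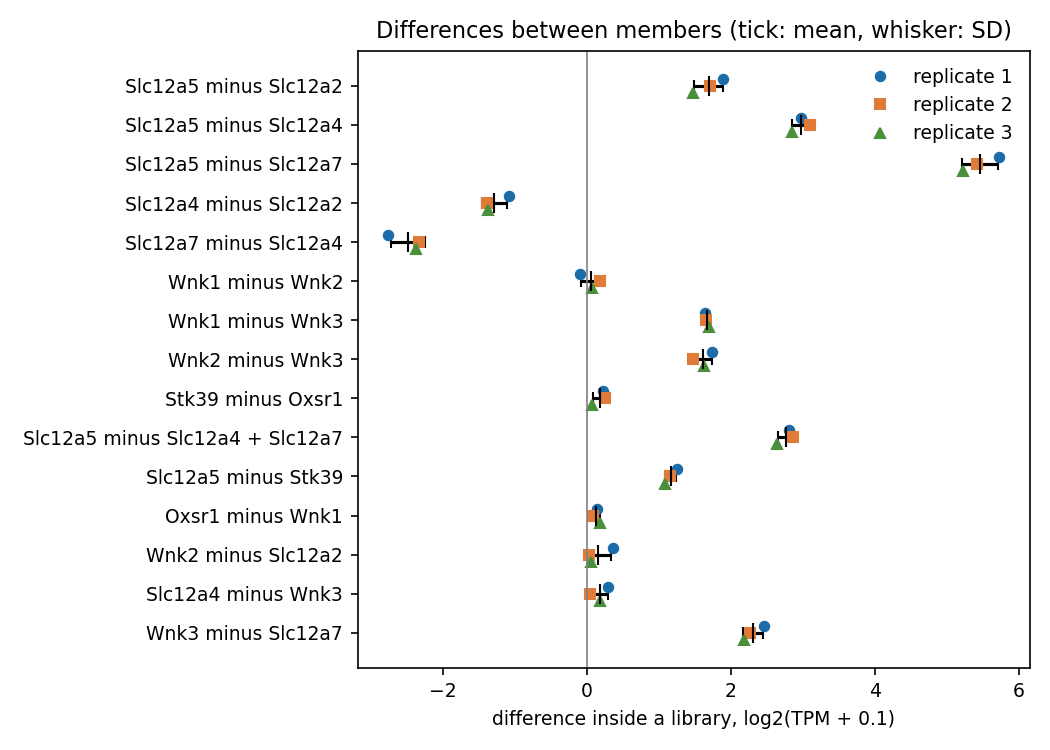
Difference in level between 2 members inside each library on the log2(TPM + 0.1) scale, first gene minus second, 1 symbol per library, with the mean as a tick and the SD as a whisker. The differences of Slc12a5 from the other cotransporters lie to the right of 0 in each library, and Wnk1 minus Wnk2 lies on both sides of 0.

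Among the WNK kinases, Wnk1 and Wnk2 lay close together in the coding entries used here, and Wnk3 was lower. Wnk1 (ENSMUSG00000045962.16, chr6:119923969-120038672, minus strand), the widely expressed family member, stood at 8.98, 10.5 and 9.27 TPM in replicates 1, 2 and 3, a mean of 9.59 ± 0.81 TPM. Wnk2 (ENSMUSG00000037989.15, chr13:49036303-49148014, minus strand), known to be enriched in brain, stood at 9.55, 9.27 and 8.79 TPM, a mean of 9.20 ± 0.39 TPM. Wnk3 (ENSMUSG00000041245.13, chrX:151198078-151320152, plus strand), a strong activator of the importer, stood at 2.80, 3.26 and 2.78 TPM, a mean of 2.95 ± 0.27 TPM.

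The Wnk1 minus Wnk2 difference was -0.09, 0.18 and 0.08 log2 units in replicates 1, 2 and 3. Its mean of 0.06 ± 0.13 did not exceed its SD (p = 0.75, exact sign-flip test, n = 3). This closeness depended on the entry that stands for a gene. With the coding entry of highest TPM the difference was 0.41 ± 0.11, beyond its SD (exact sign-flip p = 0.25, n = 3). It was 1.01 with the sum over entries, of which Wnk1 has 23 and Wnk2 has 11. Without replicate 1 it was 0.13 and without replicate 2 it was -0.0056. Wnk1 exceeded Wnk3 by 1.67 ± 0.03 and Wnk2 exceeded Wnk3 by 1.61 ± 0.13, both with the same sign in the 3 libraries (exact sign-flip p = 0.25 each, n = 3). With the sum over entries these were 3.66 and 2.65. Wnk4, a kinase known from the distal nephron, stood at 0.043, 0.045 and 0.090 TPM in replicates 1, 2 and 3. Of the summed level of the 4 WNK genes, Wnk1 made up 43.9 ± 1.78%, Wnk2 42.3 ± 2.28%, Wnk3 13.5 ± 0.54% and Wnk4 0.28 ± 0.14% (SD, n = 3).

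Transcript structure could be read where 1 coding entry lies inside another. The reads of the outer entry minus those of the inner one then lie only on the extra bases, and their density is given as a percentage of that of the inner entry. Reads that cross from the extra bases into the rest count with the inner entry, so short stretches are understated. The members held 22 such pairs with at least 60 extra bases, and in 8 of them the extra was shorter than the inner entry. Pairs of all coding genes with at least 500 reads on the inner entry were read beside them. Their median density was 6.01% over 844 pairs with 60 to under 200 extra bases, 28.6% over 1298 pairs with 200 to under 1000 and 61.1% over 569 pairs with 1000 or more. Where all extra bases lay inside the inner entry's ends, as in Wnk1-203 over Wnk1-204, Wnk2-205 over Wnk2-202 and the Wnk3 pair, the medians were 11.6% over 341 pairs, 36.3% over 158 and 66.6% over 34. Like pairs below are all pairs of the size class.

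The long alternative exon of Wnk1 held few reads. It measures 1236 bases, lies at chr6:119962397-119963632 in Wnk1-203, and is coding. It has the place of the exon known as HSN2, which is best known from nervous tissue and is mutated in a human hereditary sensory neuropathy. Its first 300 bases, chr6:119963333-119963632 read on the minus strand of GRCm38.p6, are shown as the sequence this comparison turns on.
Wnk1 long exon, first 300 bases: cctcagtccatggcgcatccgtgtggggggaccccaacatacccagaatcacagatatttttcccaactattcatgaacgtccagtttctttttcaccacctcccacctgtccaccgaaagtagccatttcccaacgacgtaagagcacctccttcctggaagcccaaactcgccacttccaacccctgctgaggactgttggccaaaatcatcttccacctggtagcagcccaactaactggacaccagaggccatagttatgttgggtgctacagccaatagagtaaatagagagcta

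Wnk1-203 differs from Wnk1-204 by this exon and 1 of 84 bases. On these 1320 bases lay 111, 84 and 88 reads in replicates 1, 2 and 3, beside 5104, 5062 and 4712 on the inner entry. The density was 16.5%, 12.6% and 14.2% of the inner entry, a mean of 14.4 ± 1.97%, higher than that of 10.7% of like pairs. A single-exon entry, which covers the long exon and its edges (chr6:119962308-119963733), stood at 1.56, 1.46 and 1.37 TPM, or 15.3 ± 1.81% of Wnk1-203. Unspliced RNA can also give reads here, and its part was not tested.

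A second exon of Wnk1, of 462 bases at chr6:119953771-119954232, sets Wnk1-202 apart from Wnk1-204, with stretches of 2, 17 and 84 bases elsewhere. Its 565 extra bases held 108, 73 and 97 reads, a density of 37.5%, 25.5% and 36.5% and a mean of 33.2 ± 6.62%, near the median of like pairs. An entry at the 3′ end, annotated as a retained intron (13.8, 16.4 and 13.6 TPM) stood at 152 ± 4.95% of Wnk1-203, so coverage was not even along the gene.

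In Wnk2, the pairs differed from each other. The 144 bases that Wnk2-205 has beyond Wnk2-202, in stretches of 99 and 45 bases, held 13, 12 and 11 reads, a density of 19.1 ± 1.21% that was higher than that of 71.1% of like pairs. The 591 bases that Wnk2-202 has beyond Wnk2-210 held 108, 81 and 69 reads, a density of 31.0 ± 3.95%. The 735 bases that Wnk2-205 has beyond Wnk2-210 held 121, 93 and 80 reads (28.4 ± 3.17%). The 298 bases that Wnk2-205 has beyond Wnk2-207, of which 253 lie at the outer 5′ end (chr13:49147762-49148014), held 0, 0 and 2 reads. These pairs share bases: stretches of 6, 36, 2 and 253 of the 591 bases lie within those 298, and the remaining stretch of the 591 measures 294 bases (chr13:49072502-49072795), so the density printed for the 591 bases is an average over unlike stretches.

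In Wnk3, a stretch of 141 coding bases at chrX:151293901-151294041 lengthens 1 exon in Wnk3-205 relative to a shorter coding entry. It is printed below from the plus strand of GRCm38.p6, as the only stretch that separates these 2 coding entries.
Wnk3 extra stretch: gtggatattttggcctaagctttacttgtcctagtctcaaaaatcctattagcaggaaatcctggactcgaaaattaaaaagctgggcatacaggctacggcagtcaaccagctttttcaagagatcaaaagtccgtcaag

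On it lay 2, 0 and 0 reads in replicates 1, 2 and 3, beside 741, 688 and 697 on the inner entry. The mean density of 3.35 ± 5.81% was higher than that of 38.9% of like pairs, and reads that cross its edges, which count with the inner entry, could not be separated. Between Slc12a4-201 and Slc12a4-202, 77 extra bases, in stretches of 6 and 71 near the 5′ end, held 0 reads in each library.

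**Figure D4:**
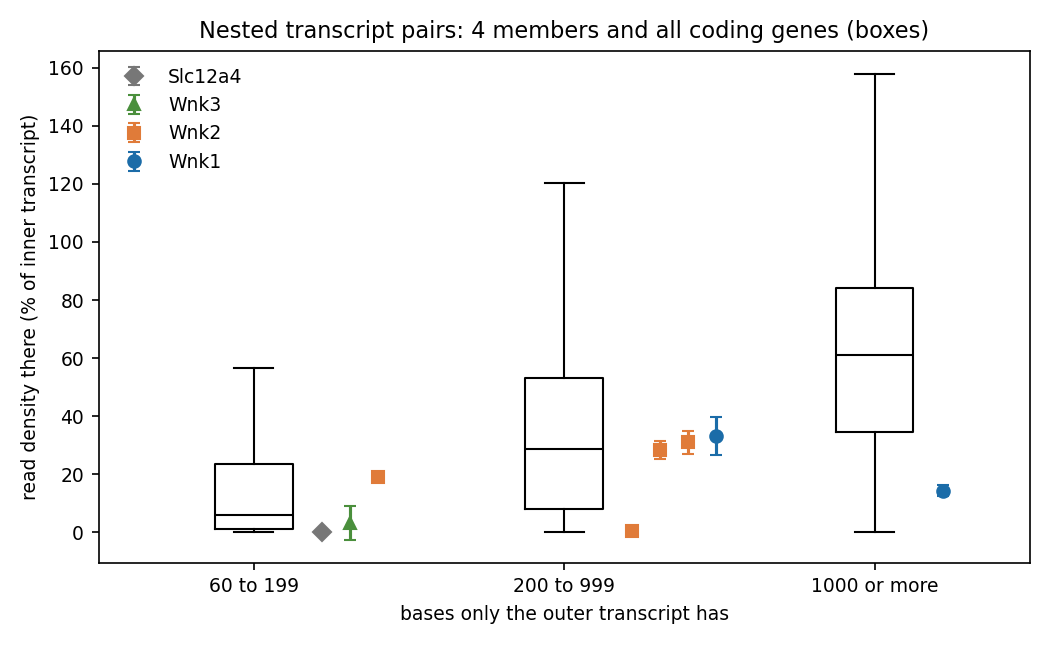
Read density on bases that only the outer coding transcript of a nested pair has, as a percentage of the density of the inner transcript, by the number of such bases. Points are the 8 pairs of Slc12a4, Wnk1, Wnk2 and Wnk3 with the SD over 3 libraries, and boxes give median, quartiles and whiskers (1.5 times the quartile range) over pairs of all coding genes. The Wnk1 pair with the long exon lies at 14.4%, below its box.

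The kinases that link WNKs to the cotransporters were close in level. Stk39 (ENSMUSG00000027030.15, chr2:68210445-68472268, minus strand) encodes SPAK and is the longest of the 9 genes, at 262 kb. It stood at 11.6, 13.2 and 11.1 TPM in replicates 1, 2 and 3, a mean of 11.98 ± 1.10 TPM. Oxsr1 (ENSMUSG00000036737.12, chr9:119238432-119322427, minus strand) encodes OSR1. It stood at 9.90, 11.1 and 10.6 TPM, a mean of 10.5 ± 0.61 TPM. The ranges overlapped, but inside each library Stk39 was higher, by 0.23, 0.25 and 0.07 log2 units. The mean difference was 0.18 ± 0.10, and the ratio 1.14 ± 0.08 (p = 0.25, exact sign-flip test, n = 3). With the sum over entries, of which Stk39 has 8 and Oxsr1 has 4, it was 1.24.

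Most members were highest in replicate 2 and none was highest in replicate 3. Of the 8 members of at least 1 TPM, 6 were highest in replicate 2, beside 40.4% of all 11204 coding genes at that level, 2 (Wnk2 and Slc12a4) in replicate 1, beside 28.2%, and 0 in replicate 3, beside 31.4%. In turn 3 were lowest in replicate 1, beside 33.6%, 0 in replicate 2, beside 25.4%, and 5 in replicate 3, beside 40.9%. The coefficient of variation of the 9 members ran from 4.19% for Slc12a4 to 16.5% for Slc12a7, with a median of 9.16%, beside 10.7% over all coding genes and 7.88% over those of at least 1 TPM.

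Regulators of the cascade were read from lists of known genes. These lists were chosen with earlier results of these data known, so their counts are descriptions only. Of 12 WNK and SPAK regulators, 11 reached 1 TPM (all coding genes 61.8%), with a list median of 16.3 TPM beside 2.91 TPM for all coding genes. The phosphatase genes Ppp1ca and Ppp1cb, whose product removes phosphate from the importer, stood at 104 ± 9.11 and 60.98 ± 4.42 TPM. Cab39, which encodes the scaffold MO25 that activates SPAK and OSR1, stood at 45.9 ± 2.04 TPM and Cul3, of the ligase that degrades WNKs, at 38.2 ± 3.97 TPM. Wnk4 was the lowest of this list.

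Of 15 partners and regulators of KCC2, 14 reached 1 TPM (all coding genes 61.8%), with a median of 11.9 TPM. The highest were the creatine kinase gene Ckb at 141 ± 2.29 TPM, the protein kinase C gene Prkcb at 55.7 ± 2.16 TPM, the BDNF receptor gene Ntrk2 at 43.9 ± 4.38 TPM and Epb41l1, of a protein that links the membrane to the cytoskeleton, at 41.3 ± 3.13 TPM. Rest, a repressor of neuronal genes outside neurons, was lowest at 0.74 ± 0.04 TPM. Of 17 genes for other chloride routes, 13 reached 1 TPM (all coding genes 61.8%), with a median of 8.24 TPM. Clcn4 and Clcn3, of endosomal chloride-proton exchangers, stood at 54.5 ± 3.64 and 51.4 ± 3.05 TPM. Slc4a10, of a sodium-bicarbonate transporter, stood at 29.3 ± 2.51 TPM and Lrrc8b, of the volume-regulated channel, at 24.4 ± 2.82 TPM. Ano1, of a calcium-activated chloride channel, was lowest, on 2 reads in replicate 1 and 0 in the others.

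**Figure D5:**
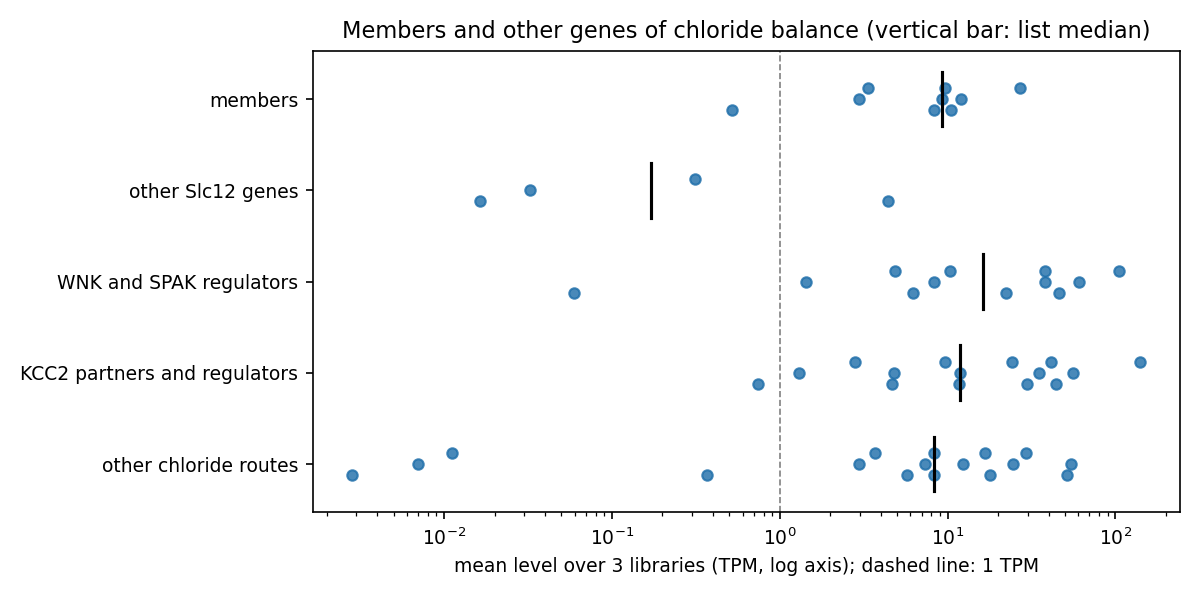
Mean level over 3 libraries in TPM on a log axis for the 9 members and 4 lists of other genes, 1 point per gene, with the list median as a vertical bar and 1 TPM as a dashed line. The member median is 9.20 TPM, that of the other Slc12 genes 0.17 TPM and that of the WNK and SPAK regulators 16.3 TPM.

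Marker lists show which other cells could share these levels. All 10 pan-neuronal markers reached 1 TPM, from Stmn2 at 687 ± 55.6 TPM to Elavl4 at 19.4 ± 4.21 TPM, so the labelled cell type had its markers. Of all coding genes, 61.8% reached 1 TPM. Of 10 astrocyte markers 9 did, from Slc1a3 at 184 ± 19.1 TPM to Gjb6 at 0.33 ± 0.04 TPM. Of 10 oligodendrocyte lineage markers 8 did, from Olig1 at 34.4 ± 2.91 TPM to Mobp at 0.018 ± 0.020 TPM, with a summed level of 56.2 to 90.5 TPM. Of 9 radial glia and progenitor markers, 8 did, from Fabp7 at 419 ± 81.4 TPM to Eomes at 0.013 ± 0.017 TPM. Choroid plexus, a tissue rich in NKCC1, was represented by Ttr at 7.59 ± 2.71 TPM, Kcne2 was lowest at 0.071 ± 0.036 TPM, and 2 of its 8 markers reached 1 TPM. Microglial, endothelial and pericyte markers summed to 1.58 to 3.07, 1.24 to 2.20 and 7.82 to 7.996 TPM a library, led by Aif1 at 1.03 ± 0.43, Slco1a4 at 0.77 ± 0.37 and Acta2 at 3.07 ± 0.85 TPM. Tmem119 and Cldn5 were listed at 0 in each library, and Col1a2 stood at 0.073 ± 0.058 TPM.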

How the data were processed

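RNA of 3 libraries was analysed as 1 group, named replicates 1 to 3 after their titles. The authors deposited TPM, by transcript, for 84660 entries of GENCODE M4; unit and release are given by the name of the deposited file, and each library's values sum to the same total. STAR 2.5.3a, Subread 1.4.6 with featureCounts, FastQC 0.11.2 and build mm10 are named, per the submitters' processing notes. Transcript identifiers, versions dropped, were looked up in GENCODE M21 on the same build, and 98.1% matched. TPM times exonic length came out as whole reads, within 0.01 of a read in every library, for 98.0% of 77590 matched entries above 0 and for all 64 entries of the members. For entries whose ends changed between releases, the deposited ends were used where they gave whole reads, so the share of whole reads is in part a product of that choice.

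Differences were taken inside a library on log2(TPM + 0.1), which understates those of low genes, and tested by flipping signs over libraries (exact permutation, two-sided). Genes were named by a fixed rule: all members, the listed other Slc12 genes, the 4 highest and the lowest of each other functional list, and the highest and lowest of each marker list. Some genes of these lists, with 1 list as a whole, and 1 sequence are not reported here and do not enter the lists' counts and medians. The partial entries of Slc12a5 and Wnk1, and the limits on like pairs, were picked with their values in view. The members and lists were chosen with earlier results of these data known. Uniqueness was checked with 50-mers taken every 10 bases of each member's transcript against 22 chromosomes: 8 members had none repeated and Wnk3 had 3 of 851. The 50-mers not found in the genome, as those across exon junctions, numbered from 76 for Stk39 to 137 for Wnk2. They counted as not repeated, so the check does not cover them. The antisense genes Gm16156 and A230072E10Rik, which share exonic bases with Slc12a4 and Wnk3, stood at 0.020 and 0.12 TPM. Reads were recovered for 100% of 83017 simulated entries. The simulation used the same lengths both ways and its entries shared no reads, so it checks the arithmetic only. Promoter windows were from RefSeq, where 8 of the 9 members had one. Python 3.11.15, numpy 2.4.6, pandas 2.3.3, scipy 1.17.1 and matplotlib 3.10.9 were used.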

Additional observations from a re-analysis of the deposited data

How the results depend on the processing

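Pseudocounts of 1 and 0.01 turned no difference between members. With the coding entry of highest TPM, Oxsr1 minus Wnk1 turned to -0.33. With the sum over entries, Oxsr1 minus Wnk1 (-2.35), Slc12a4 minus Slc12a2 (0.69), Slc12a5 minus Stk39 (-0.18) and Slc12a4 minus Wnk3 (-0.33) turned. By its construction the sum grows with the number of entries that share reads. Leaving out 1 replicate turned Wnk1 minus Wnk2, which then lay between -0.0056 and 0.13. The other differences kept their sign, but the sum moved Wnk2 minus Slc12a2 to 3.67 and Wnk3 minus Slc12a7 to 4.79, and a pseudocount of 1 moved Wnk3 minus Slc12a7 to 1.38. With at least 200 extra bases, 5 of the 8 nested pairs were left. Short stretches and entries with few reads are limited by depth. The number of members at the minimum was 9 at 0.5 TPM and 6 at 5 TPM. The share of all coding genes was taken at 1 TPM only, so these counts describe the members alone. No paired analysis was possible because there is 1 group, so replicate numbers pair no groups; differences between genes are taken inside each library.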
